A study of Mus musculus with 931 samples.

Results

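Chga, Chgb, Scg2, Scg3, Vgf, Resp18, Ptprn and Ptprn2 encode granins and membrane proteins of the dense core secretory granule, the vesicle in which islet cells store hormone. They were chosen by name, with earlier results of these data known, and they make up 8 of the 40824 gene rows of the count tables. All 8 passed the low-count filter in both sets of libraries. The study followed the insulin-producing β cells and the glucagon-producing α cells of the mouse pancreas through late gestation, the suckling period and adulthood. It measured RNA in 14 bulk β cell libraries, with a pair for each of 7 ages from E17.5 (embryonic day) over P0, the day of birth, and the postnatal days P3, P9 and P15 to P18 and then P60, and in single cells by Smart-seq2, a full-length protocol without molecular identifiers.

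The β cells, bulk and single, came from Ins1-RFP mice on a mixed background of C57BL/6 and C3H, in which a red fluorescent protein marks cells that use the Ins1 gene. The α cells came from Gcg-Cre; Rosa-RFP mice whose mixed background joins CBA/J to C57BL/6 and C3H, in which the reporter also marks descendants of any cell in which Gcg-Cre was once active. No group received a treatment, and the labels name a stage and a collection batch for each cell but no animal. The p-values reflect only how far such batches lie apart, and that distance may be technical. Because α and β cells came from different mouse lines, line and cell type cannot be told apart in the comparison between them. Unselected single-hormone cells numbered 538 β cells in 25 batches over 7 stages and 328 α cells in 20 batches over 6 stages, with none at P3. Their reads were summed by batch, and the batch is the replicate.

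Bulk libraries held 10.261 to 21.441 M gene reads (M for mega) and batches 5.96 to 49.136 M, from 5 to 39 cells each. The summed level of 9 β cell markers was 176700 to 804000 CPM (counts per M reads, scaled by the TMM method) in β batches and 502.1 to 5987 in α batches. The 6 α cell markers summed to 70450 to 602700 CPM in α batches and to 421.2 to 1226 in β batches. The bulk libraries were less pure: their 10 acinar markers, genes of the enzyme-secreting exocrine cells, summed to 1362 and 4674 CPM at E17.5 and to 20400 and 58130 at P60, against at most 143.7 in any single β batch. Acinar RNA therefore moved with stage in the bulk libraries, and bulk results are set beside the single-cell ones throughout. In bulk, fewer cells of a type and less RNA per cell cannot be told apart.

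As background, granins are acidic, soluble proteins that aggregate with calcium in the trans-Golgi network, where they help to drive granule budding and to sort hormones, and they are cut into bioactive peptides. Chga (chromogranin A), Chgb (chromogranin B) and Scg2 (secretogranin II, the precursor of secretoneurin) are the classical members. Scg3 (secretogranin III) links granin aggregates to the cholesterol-rich granule membrane, and Vgf is a neurotrophin-inducible granin whose peptides act on metabolism. Resp18 is a small endocrine protein of the secretory pathway. Ptprn (IA-2) and Ptprn2 (phogrin) are transmembrane granule proteins with a phosphatase-like domain, a luminal part related to Resp18, and a place among the autoantigens of autoimmune diabetes.

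The genes lie on 5 chromosomes (GRCm38, GENCODE M21). Chga was annotated at chr12:102554969-102565028 on the plus strand, Chgb at chr2:132781278-132795079 on the plus strand, Scg2 at chr1:79434669-79440120 on the minus strand and Scg3 at chr9:75643189-75684056 on the minus strand. Vgf was at chr5:137026392-137033351 on the plus strand and Ptprn2 at chr12:116485720-117276849 on the plus strand. Resp18, at chr1:75272199-75278415, and Ptprn, at chr1:75247027-75264502, are both on the minus strand with 7696 bases between them. All are protein-coding, and the reads counted are those of their exons. Exons of Ptprn share 189 bases with the antisense gene Gm28294, and those of Resp18 share 40 bases with the antisense gene Gm28902. The strand setting of the counting was not given in the sources used here, so these overlaps could move reads, but the reads counted for each antisense gene came to at most 0.126% of those of its partner.

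Promoter sequence is shown because several granin genes are textbook targets of the cyclic AMP response element (CRE), TGACGTCA, and of its shorter core, TGACG. RefSeq promoter windows (GRCm38.p6) were at hand for 7 of the 8 genes, all but Vgf, with a first and a second window for Ptprn. The 250 bases before each start were searched on both strands, and a stretch of 30 bases around the match is shown for the 5 genes that held one, 5′ to 3′ on the gene's strand, with the matched letters in capitals. Every whole CRE also contains the core. The RefSeq starts are not always the outer ends of the GENCODE genes given above. The stretches of Chgb, Scg2 and Ptprn lie upstream of a RefSeq start but inside the GENCODE spans of their genes.
Chgb, chr2:132781559-132781588, bases -83 to -54 from the start: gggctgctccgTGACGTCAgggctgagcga
Scg2, chr1:79440076-79440105, bases -79 to -50: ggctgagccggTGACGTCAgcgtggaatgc
Chga, chr12:102554886-102554915, bases -55 to -26: gggcggtcctaTGACGtaatttcctgggtg
Scg3, chr9:75684068-75684097, bases -41 to -12: cgctgggtcgcTGACGccatcctcacgcct
Ptprn, chr1:75264307-75264336, bases -128 to -99: ttacgccagtaTGACGcaaataggcataag
The whole element stood in Chgb and Scg2, and it was found in 508 of 32851 promoter windows of the same length (1.55%). The core alone stood in Chga, Scg3 and the first Ptprn window, and it was found in 5836 windows (17.8%). That Ptprn window also held the core at bases -80 to -76 on the other strand. The second Ptprn window held neither string. Resp18 and Ptprn2 held neither string in these windows. A match is a description of letters and not a measured site.

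The first question was how these genes moved as β cells aged, read as P60 against E17.5. In single β cells 5 of the 8 genes were higher at P60 and none lower by edgeR's quasi-likelihood test (Benjamini-Hochberg adjusted p under 0.05), where 3.08% of 18537 genes were called higher and 3.89% lower. In bulk β cells the count was also 5 higher and 0 lower, where 13.8% of 16086 genes were called higher and 15.2% lower. The 5 were Chga, Scg2, Scg3, Resp18 and Ptprn in both sets of libraries. The median log2 change over the 8 genes was 0.92 in single β cells and 0.93 in bulk, against -0.01 and -0.03 over all genes tested. In α cells the same 5 genes were higher at P60 and none lower (4.3% of genes called higher, 5.66% lower), with a median log2 change of 1.49 against -0.00 over all genes.

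**Figure D1:**
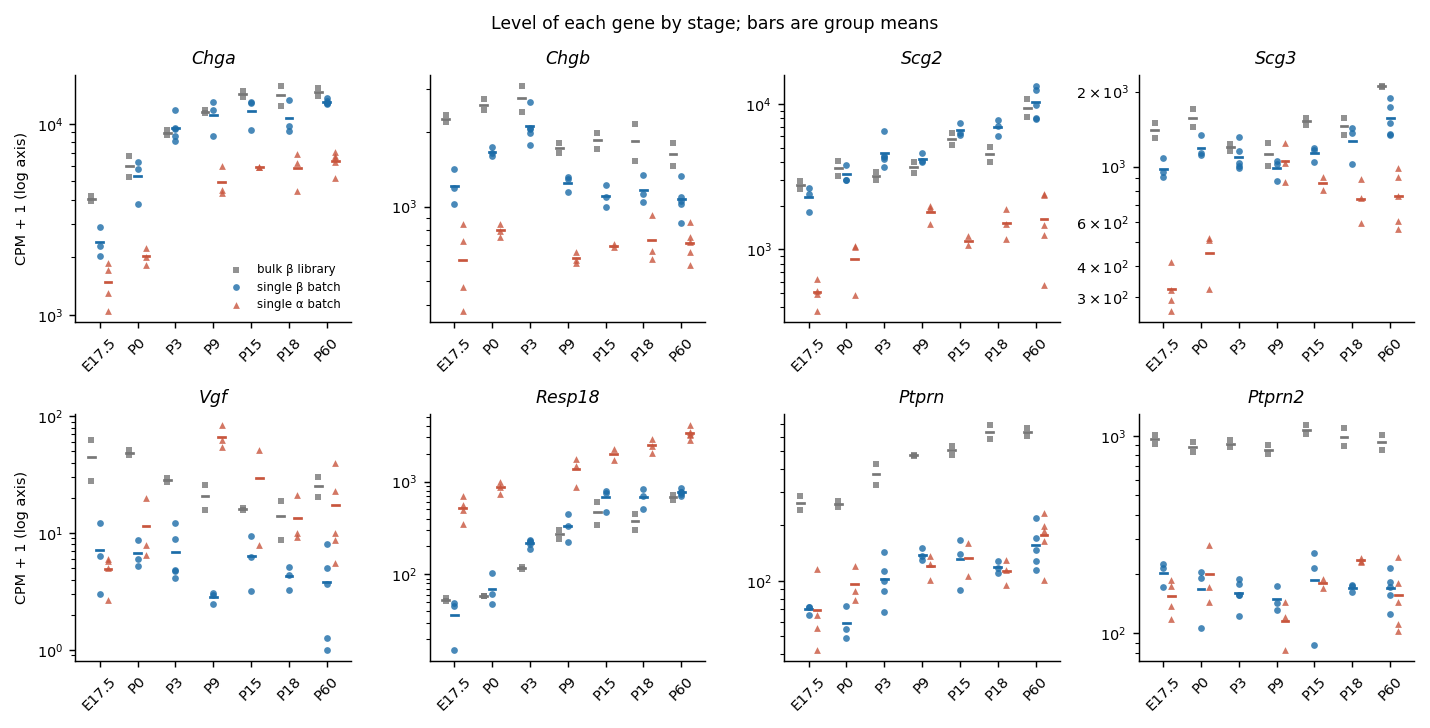
Level of each gene at each stage, in CPM + 1 on log axes: squares are the 2 bulk β libraries of a stage, circles single β batches, triangles single α batches, and bars group means. Resp18 runs from 14.36 to 47.92 CPM in β batches at E17.5 up to 705.1 to 841.8 at P60, and its α batches stand above the β batches of the same stage at all 6 shared stages.

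Resp18 showed the steepest course. In single β batches it stood at 14.36, 47.92 and 44.47 CPM at E17.5 and at 60.32, 101.5 and 46.51 at P0. It then reached 187.2, 234, 211.1, 227.4 and 224.4 CPM at P3, 331.8, 451.6 and 222.5 at P9, 789.6, 757.4 and 469.8 at P15, and 703.2, 506.2 and 827.6 at P18. At P60 the 5 batches gave 764.3, 705.1, 841.8, 739.7 and 775.9 CPM. The groups at E17.5 and P60 were thus far apart, with neighbouring stages overlapping only before P3, between P3 and P9, and from P15 onwards. The mean went from 35.58 ± 18.46 (SD, n = 3) to 765.4 ± 50.61 CPM (n = 5), a log2 change of 4.42 ± 0.33 (SE), or 21.35-fold (adjusted p = 9.75e-12).

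The bulk libraries gave Resp18 at 55.16 and 50.15 CPM at E17.5, 56.98 and 57.05 at P0, 113.9 and 118.7 at P3, 297.7 and 241.4 at P9, and 637.9 and 714 at P60. The change from E17.5 to P60 was 12.83-fold (log2 3.68 ± 0.28, adjusted p = 9.08e-06). At P15 the pair was 340.4 and 605.8 CPM and at P18 it was 450.6 and 301.1, wider than at other stages. The 6 α cell markers moved with these: they summed to 6685 and 15680 CPM in the same 2 libraries at P15 and to 10490 and 2615 at P18, against 1467 to 4094 at the other stages. Their part in the bulk spread of Resp18 was not tested.

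In α batches Resp18 was already high before birth. It stood at 551.4, 493.3, 689.3 and 350.7 CPM at E17.5, 740.1, 990.3 and 873 at P0, 877.4, 1768 and 1477 at P9, 2246 and 1719 at P15, 2860, 2432 and 2039 at P18, and 3143, 3258, 3443, 2775 and 4051 at P60. Every α batch at P60 exceeded every α batch at E17.5, and the mean went from 521.2 ± 140.3 (n = 4) to 3334 ± 469.2 CPM (n = 5), a 6.65-fold change (log2 2.73 ± 0.27, adjusted p = 7.16e-09). The α cell change was smaller than the β cell change by 1.68 ± 0.37 on the log2 scale, tested as an interaction (adjusted p = 0.00515). Resp18 was the only one of the 8 genes called in that test, where 3.67% of genes were called. It was called in all 25 alternatives tried for that test, with differences of -2.34 to -1.36.

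Chga, the most abundant granin in β cells, rose early and then flattened. The 3 β batches at E17.5 gave 2038, 2296 and 2876 CPM and those at P9 gave 11830, 12910 and 8671. At P60 the 5 batches lay between 12750 and 13550 CPM. The log2 change from E17.5 to P9 was 2.21 ± 0.21 (adjusted p = 2.13e-08), and from P9 to P60 it was 0.23 ± 0.18 (adjusted p = 0.813). The bulk pairs followed the same course, at 3945 and 4173 CPM at E17.5, 11330 and 11820 at P9, and 13980 and 15410 at P60. In α batches Chga stood at 1309, 1861, 1722 and 1053 CPM at E17.5, at 4367, 4489 and 6032 at P9 and at 5172 to 7110 at P60. P60 exceeded E17.5 4.33-fold (log2 2.11 ± 0.18, adjusted p = 2.84e-10).

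Scg2 rose in β cells, with the call against P9 as well as against E17.5. The β batches gave 1822, 2419 and 2655 CPM at E17.5, 4079, 3983 and 4578 at P9, and 9828, 8071, 7962, 13380 and 12440 at P60. None of these 3 groups overlapped. P60 exceeded E17.5 4.5-fold (log2 2.17 ± 0.31, adjusted p = 5.47e-06) and P9 2.46-fold (adjusted p = 0.0242), while P9 against E17.5 did not pass (log2 0.87 ± 0.32, adjusted p = 0.218). In bulk the pairs were 2944 and 2618 CPM at E17.5, 3991 and 3337 at P9, and 8100 and 10810 at P60, with a 3.4-fold difference between P60 and E17.5 (log2 1.77 ± 0.23, adjusted p = 0.000258). In α batches it went from 519.7, 494.4, 628.2 and 377.7 CPM at E17.5 to 1994, 1484 and 1913 at P9, and then spread from 572.5 to 2405 at P60. The α batch 1 at P60, with 572.5 CPM, lay within the range at E17.5. P60 against E17.5 was 3.17-fold in α cells (log2 1.67 ± 0.27, adjusted p = 5.61e-05), and the difference between α and β cells in this change did not pass (-0.50 ± 0.39, adjusted p = 0.612).

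Scg3 was called in both cell types, but its direction in β cells depended on the scaling. β batches gave 903.9, 947.8 and 1085 CPM at E17.5, 876, 1024 and 1052 at P9, and 1349, 1501, 1339, 1885 and 1736 at P60. The log2 change from E17.5 to P60 was 0.68 ± 0.18 (adjusted p = 0.0167) with TMM scaling, but it was -0.11 both when plain library size replaced TMM (adjusted p = 0.656) and when limma on log2(CPM + 1) with equal cell weights replaced edgeR (adjusted p = 0.714). The limma fit took the plain CPM of each cell, so both alternatives go without TMM and are not independent in scaling. The bulk pairs, 1500 and 1304 CPM at E17.5, 1245 and 1003 at P9 and 2088 and 2108 at P60, gave a log2 change of 0.58 ± 0.18 (adjusted p = 0.0271), which was called in 3 of 9 alternatives. In α batches Scg3 stood at 290.7, 320, 411.9 and 262.9 CPM at E17.5, at 1241, 865.5 and 1034 at P9, and at 561 to 981.3 at P60. P9 exceeded E17.5 3.25-fold (log2 1.70 ± 0.19, adjusted p = 3.04e-07) and P60 exceeded it 2.36-fold (log2 1.24 ± 0.17, adjusted p = 4.1e-06). The α means of 1047 ± 188.1 CPM at P9 and 762.8 ± 183.1 at P60 did not pass the test of their difference (adjusted p = 0.22). Neither did the difference between the α and β changes (0.57 ± 0.25, adjusted p = 0.222).

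Chgb passed no test between E17.5, P9 and P60 with TMM scaling, and its levels at P3 were not tested against another stage. It stood at 1020, 1192 and 1426 CPM in β batches at E17.5 and at 860.7, 1334, 1096, 1054 and 1020 at P60. P3 was the highest stage of Chgb, at 1786 to 2668 CPM, above every β batch at E17.5, P9 (1141 to 1319) and P60. The bulk pairs were 2353 and 2195 CPM at E17.5, 3094 and 2421 at P3 and 1460 and 1805 at P60. The log2 change from E17.5 to P60 was -0.17 ± 0.18 in single β cells (adjusted p = 0.681), -0.48 ± 0.21 in bulk (adjusted p = 0.114) and 0.26 ± 0.17 in α cells (adjusted p = 0.36). With plain library size it was -0.95 in single β cells (adjusted p = 0.000229) and -0.91 in bulk (adjusted p = 0.00284), and the α value turned to -0.51 (adjusted p = 0.0318). Its α batches overlapped between the stages, at 376.8 to 851 CPM at E17.5 and 580 to 866.7 at P60.

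Vgf was the scarcest of the 8, near the limit of detection in β cells, with 1 α stage apart. β batches held 0 to 11.29 CPM across all 25 batches, and P60 against E17.5 did not pass (log2 -1.13 ± 0.81, adjusted p = 0.5). In α batches it stood at 4.028, 5.028, 1.687 and 4.828 CPM at E17.5, at 61.03, 83.03 and 53.62 at P9, at 6.855 and 50 at P15, and at 4.518, 9.003, 7.752, 21.81 and 38.72 at P60. All 3 α batches at P9 exceeded every other α batch of the series. P9 against E17.5 was 16.91-fold (log2 4.08 ± 0.93, adjusted p = 0.00652), and P60 against E17.5 did not pass (log2 2.05 ± 0.81, adjusted p = 0.101). The α batches at P9 also carried the most acinar RNA of all single-cell groups, with acinar markers at 448.2 to 1249 CPM against 35.1 to 257 in the other α batches and at most 1 of the 10 markers at 0 in a batch, and erythroid markers at 5.945 to 1660. Their part in the level of Vgf was not tested. In the bulk β libraries Vgf was 27.03 and 61.15 CPM at E17.5 and 19.33 and 29.4 at P60 (adjusted p = 0.146).

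Ptprn rose, while its relative Ptprn2 passed no test between E17.5, P9 and P60 with TMM scaling. Ptprn stood at 71.44, 71.4 and 64.67 CPM in β batches at E17.5, at 149.8, 128 and 134.5 at P9 and at 113.7, 218.5, 169.3, 145.9 and 126.7 at P60, without overlap between E17.5 and either later group. The log2 change to P60 was 1.16 ± 0.28 (2.24-fold, adjusted p = 0.00535), and with plain library size it was 0.38 (adjusted p = 0.352). In bulk, Ptprn went from 238.9 and 285.7 CPM to 601.2 and 665.8 (log2 1.27 ± 0.17, adjusted p = 0.000324). In α batches it went from 64.09, 114.1, 41.24 and 54.33 CPM to 163.1, 195.4, 99.51, 185 and 229.9, where 1 P60 batch overlapped the E17.5 range (log2 1.30 ± 0.25, adjusted p = 0.000512, or 0.53 and adjusted p = 0.13 with plain library size).

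Ptprn2 in β batches stood at 212.3, 223 and 171 CPM at E17.5 and 124 to 214.4 at P60 (log2 -0.25 ± 0.27, adjusted p = 0.709, or -1.04 and adjusted p = 0.00182 with plain library size). Its bulk pairs were 904.6 and 1014 CPM at E17.5 and 850.5 and 1007 at P60 (adjusted p = 0.866, or 0.027 with plain library size). In α cells the log2 change was 0.00 ± 0.25 (adjusted p = 1), but -0.75 with plain library size (adjusted p = 0.0163) and -1.04 with limma and equal cell weights (adjusted p = 0.00366). Neither of these alternatives used TMM. The bulk and single-cell tables were made by different protocols and scaled separately, so the gap between about 928.8 CPM in bulk and 169.2 in single β cells at P60 is set side by side only.

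**Figure D2:**
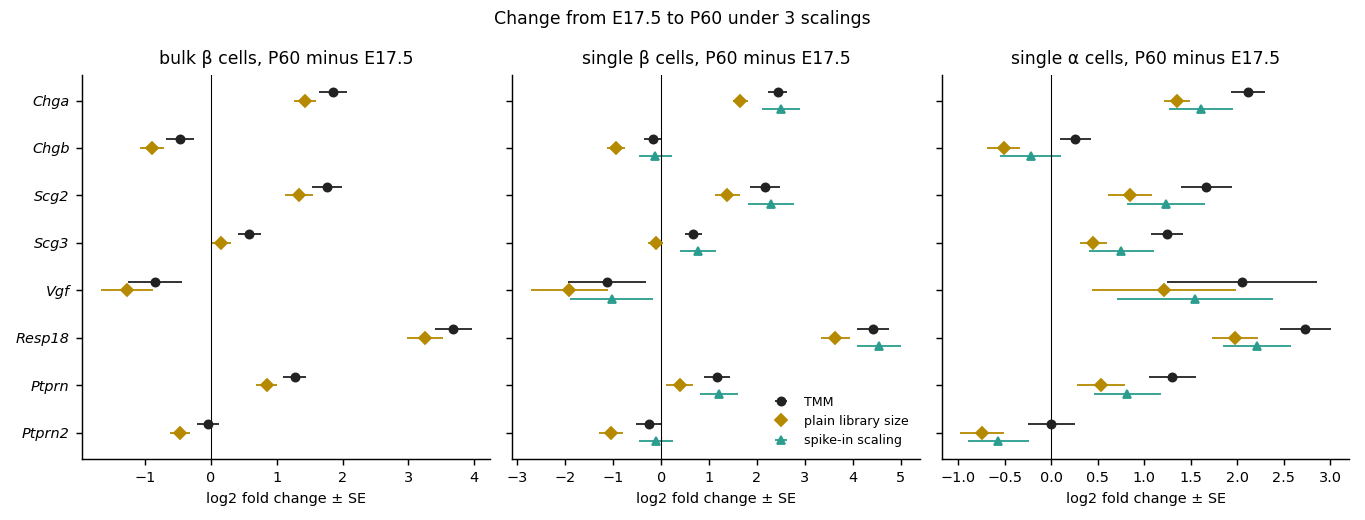
Log2 fold change from E17.5 to P60 with its standard error for each gene, in bulk β, single β and single α cells, under TMM (black circles), plain library size (gold diamonds) and spike-in scaling (green triangles, single cells only). Chga, Scg2 and Resp18 stay right of 0 in all 3 panels under every scaling drawn, while Scg3 in β cells moves from 0.68 to -0.11 with plain library size and Chgb and Ptprn2 in α cells lie at -0.51 and -0.75 with plain library size.

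The share of hormone reads moved with age, and its part in the differences between scalings was not tested. Reads of Ins1, Ins2 and Gcg took a mean of 23.02% of gene reads in β batches at E17.5 and 48.53% at P60, and 12.91% and 41.04% in α batches. With plain library size the median log2 change of all genes from E17.5 to P60 was -0.46 in bulk, -0.76 in single β and -0.73 in single α cells. The share of called genes that were higher was then 16.6%, 5.6% and 5.8%, against 47.6%, 44.2% and 43.2% with TMM. With spike-in scaling the all-gene median was 0.07 in β and -0.55 in α cells, and 3 of the 8 genes were called in β cells (Chga, Scg2 and Resp18) and 2 in α cells (Chga and Resp18), all higher. Over all genes that scaling called 484 in β cells, 46.5% of them higher, and 1974 in α cells, 9.2% of them higher. The calls lost with spike-ins were Scg3 (0.77, adjusted p = 0.352) and Ptprn (1.21, adjusted p = 0.104) in β cells, and Scg2 (1.23, adjusted p = 0.0501), Scg3 (0.75, adjusted p = 0.159) and Ptprn (0.82, adjusted p = 0.137) in α cells.

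As a share of all gene reads, the 8 genes together went from 0.9121% (SD 0.09843, n = 3) in β batches at E17.5 to 1.984% (SD 0.1809, n = 5) at P60, and from 0.5873% to 1.247% in α batches. With the hormone reads left out of the total, the shares were 1.188% and 3.856% in β and 0.6753% and 2.13% in α. Per spike-in read the ratio was 0.2657 and 1.061 in β batches and 0.1383 and 0.3994 in α batches. The α batches at P60 ranged from 0.145 to 0.6466 per spike-in read and overlapped those at E17.5, which ranged from 0.1213 to 0.1678.

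The P9 samples split the course from E17.5 to P60 into an earlier and a later part. From E17.5 to P9, 2 of the 8 genes were called in single β cells, Chga and Resp18, both higher (1.25% of genes called). In bulk β cells 3 were called, Chga, Resp18 and Ptprn, all higher (8.18% of genes called). The bulk call of Ptprn was lost whichever of the 4 libraries was left out (adjusted p = 0.0516 to 0.12) and with the acinar covariate (0.195). Ptprn in single β cells was 1.99-fold (adjusted p = 0.102). In α cells 5 were called, all higher: Chga, Scg2, Scg3, Vgf and Resp18 (3.48% of genes called). With spike-in scaling none of the 8 was called in α cells for P9 against E17.5, nor in either cell type for P60 against P9. Over all genes it called 292 in α cells for P9 against E17.5. For P60 against P9 it called 25 in β and 17 in α cells.

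From P9 to P60, 2 were called in single β cells, Scg2 and Resp18, both higher (0.626% of genes called). In bulk 3 were called, Scg2, Scg3 and Resp18, all higher (16.2% of genes called). In α cells Resp18 alone was called, higher at 2.48-fold (adjusted p = 0.0149, with 0.847% of genes called). The P15 and P18 samples fall within this span and were not tested against another stage. The changes therefore cannot be assigned to adulthood alone. Mean Resp18 in β batches was 335.3 CPM (P9), 672.3 (P15) and 765.4 (P60). Mean Scg2 there was 4213 CPM (P9), 6629 (P15) and 10340 (P60). The single β calls rest on few batches: without β P60 batch 4 or 5, or β P9 batch 1 or 3, none of the 8 genes was called, and without any other batch of the 2 groups 1 was called. Without α P9 batch 2 the α call was lost as well. In bulk P9 against E17.5, 1 gene was called with the acinar level as a covariate. At P9 and P60 the bulk acinar markers summed to 33230 and 52660 and to 58130 and 20400 CPM.

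The second question was how α and β cells differed at the same stage. Chga and Scg2 were lower in α cells at all 6 shared stages, Chgb at 5 and Scg3 at 4, and Resp18 was higher at all 6. Vgf was higher in α cells at 2 stages, and Ptprn and Ptprn2 were called at none. The genes called numbered 5 at E17.5 (1 higher and 4 lower, with 8.31% of all genes called), 5 at P0 (1 and 4, with 4.96%), 5 at P9 (2 and 3, with 6.51%), 3 at P15 (1 and 2, with 5.41%), 5 at P18 (1 and 4, with 9.05%) and 6 at P60 (2 and 4, with 12.9%). The P15 comparison rests on 2 α batches, and without α P15 batch 1 it called 1 gene. Without α P18 batch 1 the P18 comparison called 3. Of the calls lost most often, Chgb at P18 was called in 8 of 15 alternatives, Scg3 at P18 in 10 of 15, Chga at P15 in 9 of 13 and Chga at E17.5 in 11 of 15. Chgb at P18 was lost without α batch 1 (adjusted p = 0.133), α batch 3 (0.0946) or β batch 3 (0.117), and Scg3 at P18 without α batch 1 (0.0839). Chga was lost at E17.5 without β batch 3 (0.171) or α batch 4 (0.07), and at P15 without either α batch (0.0769 and 0.0826).

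**Figure D3:**
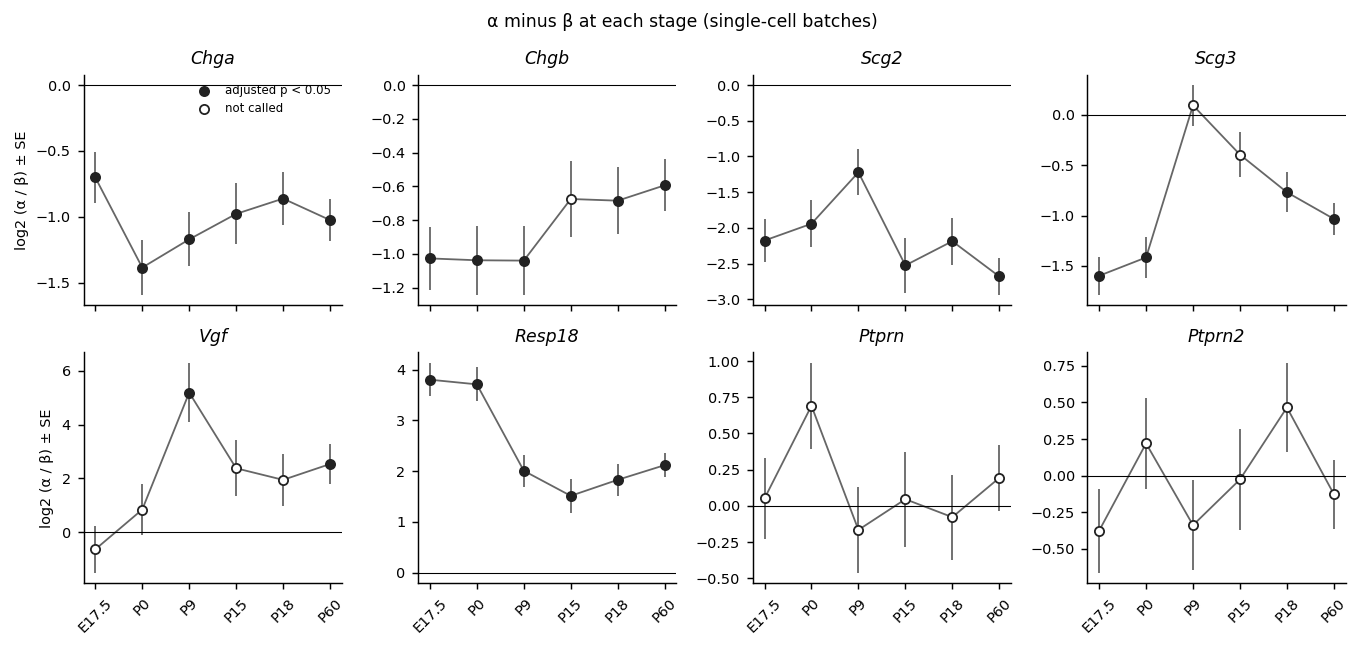
Log2 ratio of α to β cells for each gene at the 6 stages both were collected, with the standard error of the fit; filled points passed adjusted p 0.05 and open points did not. Chga, Chgb and Scg2 lie below 0 at every stage, Resp18 lies above 0 at every stage and comes down from 3.80 at E17.5 to 2.12 at P60, and Scg3 returns to the line at P9.

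Scg2 had the largest α to β difference of the 8 genes at P60. There α batches gave 572.5, 1473, 1252, 2405 and 2368 CPM and β batches 7962 to 13380, so that the groups did not overlap, and α cells were 6.41-fold lower (log2 -2.68 ± 0.26, adjusted p = 6.28e-10). At P9, when α cells had their highest mean of Scg2, the difference was 2.33-fold (adjusted p = 0.0134). Chga was 2.03-fold lower in α cells at P60 (adjusted p = 7.43e-06), and its groups at P60, 5172 to 7110 against 12750 to 13550 CPM, did not overlap.

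Scg3 was 3.03-fold lower in α cells at E17.5 (log2 -1.60 ± 0.19, adjusted p = 1.04e-07) and 2.05-fold lower at P60 (adjusted p = 6.11e-06). At P9 the α batches, 1241, 865.5 and 1034 CPM, overlapped the β batches, 876, 1024 and 1052, and the log2 difference was 0.10 ± 0.20 (adjusted p = 0.895). Chgb was 2.04-fold lower in α cells at E17.5 (adjusted p = 0.000208) and 1.51-fold lower at P60 (adjusted p = 0.00696). At P15 it did not pass (adjusted p = 0.0796). At P60 its α batches, 580 to 866.7 CPM, just overlapped the β batches, 860.7 to 1334.

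Resp18 stood the other way, at 13.95-fold more in α than in β cells at E17.5 (log2 3.80 ± 0.33, adjusted p = 1.49e-10), 13.08-fold at P0, 4.02-fold at P9, 2.86-fold at P15, 3.56-fold at P18 and 4.34-fold at P60 (adjusted p = 2.71e-08). Vgf was 36.56-fold higher in α cells at P9 (log2 5.19 ± 1.10, adjusted p = 0.00171), where the β batches held 2.092, 1.985 and 1.466 CPM. At P60 it was 5.8-fold higher (adjusted p = 0.02), although α batches of 4.518 to 38.72 CPM overlapped β batches of 0 to 7.022. That call was made in 13 of 20 alternatives, and it was lost without α P60 batch 5 (adjusted p = 0.138) or β P60 batch 4 (0.0572). Over the alternatives the adjusted p of Vgf at P60 ran from 0.00158 to 0.354. Ptprn differed by -0.17 to 0.69 on the log2 scale over the 6 stages (lowest adjusted p = 0.207) and Ptprn2 by -0.38 to 0.47 (lowest adjusted p = 0.396). Their standard errors, 0.23 to 0.34, leave room for modest differences.

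Levels of different genes were compared per unit of length, as TPM (transcripts per M transcripts) computed from the counts and the gene lengths in the table. In β cells at E17.5 the order was Chga (2141 TPM), Scg2 (1604), Chgb (786.3), Scg3 (761.1), Ptprn2 (87.61), Resp18 (81.61), Ptprn (33.56) and Vgf (3.864). The batches of Chgb and Scg3 overlapped there, as did those of Ptprn2, Resp18 and Ptprn in turn. By P60 the order was Chga (5058), Scg2 (2951), Resp18 (747), Scg3 (505.2), Chgb (288.5), Ptprn (32.18), Ptprn2 (29.58) and Vgf (0.7606), and only Ptprn and Ptprn2 overlapped. Resp18 had thus passed Ptprn2, Chgb and Scg3 in β cells.

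In α cells Resp18 and Chga held the highest levels at every stage collected. Resp18 was first at P0 (2696 TPM against 2570 for Chga, overlapping) and at P18 (4674 against 4358, overlapping). At E17.5 the order was Chga (2180 TPM), Resp18 (1969), Chgb (618.3), Scg2 (570.8), Scg3 (409.3), Ptprn2 (108), Ptprn (54.62) and Vgf (3.776), with Chga and Resp18 overlapping, Chgb, Scg2 and Scg3 overlapping in turn, and Ptprn2 and Ptprn overlapping. Chga was also first at P9 (3970 against 2760 for Resp18, overlapping) and at P15 (4548 against 3796, not overlapping). At P60 it was Resp18 (6385), Chga (4729), Scg2 (841), Scg3 (462.9), Chgb (359.8), Ptprn (68.35), Ptprn2 (53.97) and Vgf (7.304), with Resp18 and Chga, Scg2 and both Scg3 and Chgb, and Ptprn and Ptprn2 overlapping.

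**Figure D4:**
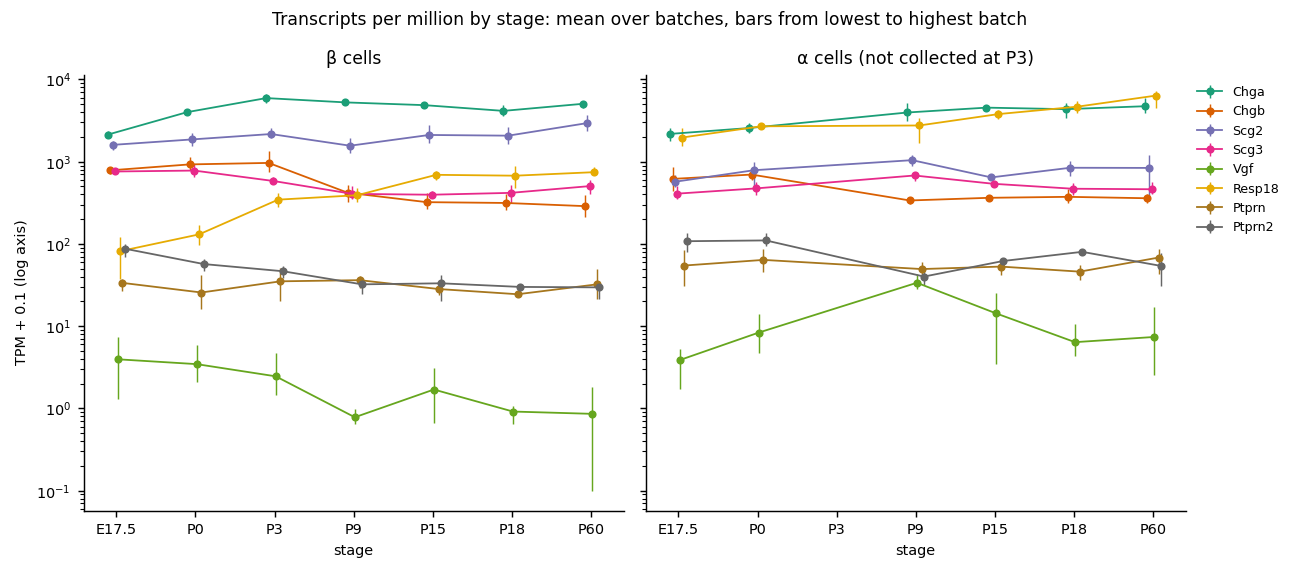
Mean TPM + 0.1 of the 8 genes on a log axis by stage, β cells on the left and α cells on the right, with bars from the lowest to the highest batch. The line of Resp18 climbs from 81.61 TPM at E17.5 to 747 at P60 in β cells and from 1969 to 6385 in α cells. Chgb stands at 786.3 TPM at E17.5 and 288.5 at P60 in β cells. It passed no test between E17.5, P9 and P60 with TMM scaling, and P3 was not tested.

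Single cells showed whether a gene was carried by all cells or by some. Here CPM is the plain value of a cell, and the groups had similar depth (median 1.011 to 1.267 M reads per cell). Hormone reads took a larger share with age, however, a mean of 23.02% and 48.53% in β batches at E17.5 and P60, and 12.91% and 41.04% in α batches. The median number of genes detected per cell was 8582 and 7624 in β cells at these stages, and 8610 and 6781 in α cells. The part of this in the detection shares below was not tested. Chga, Chgb, Scg2 and Scg3 had reads in every one of the 538 β and 328 α cells of the 13 groups. Resp18 had a read in 43 of 57 β cells at E17.5 (75.44%, exact 95% interval 62.24% to 85.87%) and in 125 of 129 at P60 (96.9%, 92.25% to 99.15%). The E17.5 batches were unlike: 2 of 5, 3 of 31 and 9 of 21 cells had no read. In between, the β share was 98.86% at P3 and 87.32% at P18, so it did not rise steadily. The corresponding share in α cells was 97.73% to 100% at the 6 stages. Vgf had a read in 27 of 57 β cells at E17.5 (47.37%, 33.98% to 61.03%) and 25 of 129 at P60 (19.38%, 12.95% to 27.26%). In α cells it had one in 22 of 65 at E17.5 (33.85%, 22.57% to 46.65%), 40 of 45 at P9 (88.89%, 75.95% to 96.29%) and 38 of 83 at P60 (45.78%, 34.79% to 57.08%). These intervals cover counting error over cells only, and reads without molecular identifiers are not independent molecules.

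The spread between cells narrowed for Chga. Its coefficient of variation was 0.6734 in β cells at E17.5 and 0.2978 at P60, and 0.7398 and 0.3474 in α cells. Resp18 went from 1.252 to 0.5677 in β and from 0.7368 to 0.3962 in α cells. Scg3 had the lowest value at both stages in β cells, 0.2439 and 0.2916. A minority of older β cells had few Resp18 reads: 13 of 71 at P18 and 11 of 129 at P60 held under 20 CPM, among them 9 and 4 with no read. The median Chga in these cells was 7274 CPM at P18 and 8688 at P60, against 7859 and 8941 in the other cells, and the median Ins2 was 352300 and 350700 against 341100 and 340500. The median Ptprn was 54.41 and 97.46 CPM in the low cells at these stages, against 88.07 and 104.2. For Chgb it was 579.3 and 772.2 CPM, against 718.8 and 709.4. The low cells came from 2 of 3 batches at P18 and 4 of 5 at P60. At P18 the FACS-sorted batches held 4 of 31 and 9 of 35 low cells, and the manually picked batch 0 of 5. At P60 the FACS-sorted batches held 6 of 39 and 2 of 21, and the manually picked ones 2 of 14, 0 of 29 and 1 of 26. The part of collection method or of missed reads was not tested.

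**Figure D5:**
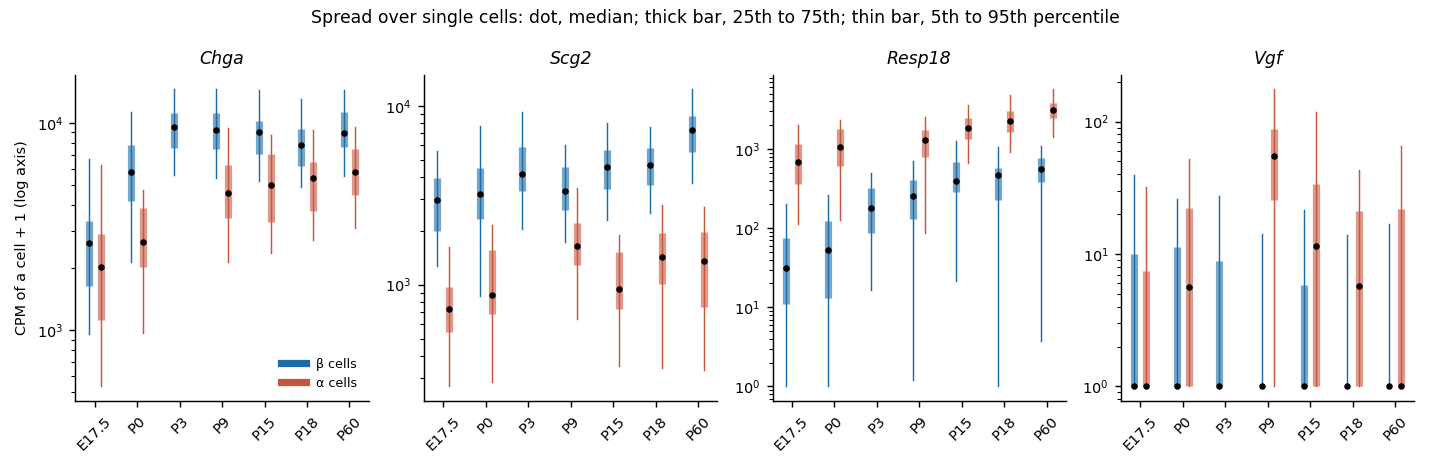
Distribution over single cells of CPM + 1 on log axes for Chga, Scg2, Resp18 and Vgf by stage, in β cells (blue) and α cells (red): the dot is the median, the thick bar the 25th to 75th percentile and the thin bar the 5th to 95th. The median of Resp18 in β cells goes from 30.63 CPM at E17.5 to 555 at P60, below the α median of 685.5 and 3129 at those stages, and the median of Vgf is 53.79 CPM in α cells at P9 and 0 in β cells at all stages.

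Across cells of one group the 8 genes moved together only weakly. Of 364 Spearman correlations (28 pairs in 13 groups), 225 were above 0, with a median of 0.046 and a range of -0.527 to 0.506. The highest pair medians were 0.25 for Chgb with Scg3, 0.235 for Scg2 with Scg3, 0.218 for Chgb with Ptprn and 0.215 for Chga with Chgb. Cells of a group share their batches, and no test was made.

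Across the 13 group means, over groups that share age and cell type, Chga, Scg2 and Scg3 followed one another closely, while other pairs differed in sign. Pearson's r was 0.895 for Scg2 with Scg3, 0.847 for Chga with Scg2 and 0.81 for Chga with Scg3. It was 0.709 for the neighbours Resp18 and Ptprn and -0.687 for Chgb with Resp18. Vgf stood at -0.525 with Scg2 and -0.505 with Chgb. Ptprn2 lay between -0.234 (with Vgf) and 0.082 (with Chgb). The genes most like a member over the 13 groups, among about 5432 with a mean of 20 CPM or more, were Akr1c14 (0.986), Ddc (0.937) and Lamp2 (0.933) for Chga, and Ece1 (0.94), Pea15a (0.915) and Cnih1 (0.914) for Chgb. For Scg2 they were Syp (0.976), Tmem30a (0.975) and Prdx6 (0.974), and for Scg3 Twsg1 (0.966), Selm (0.964) and Pianp (0.956). Resp18 was closest to Pcsk1n (0.968), Adk (0.964) and Ttc39b (0.956), and Ptprn to Eif2s3y (0.936, a Y-linked gene), Tmx4 (0.929) and Megf9 (0.909). For Vgf they were Cox6b1 (0.889), Tomm7 (0.874) and Neo1 (0.87).

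Other granule genes were read from a list of 42 that covers processing enzymes, zinc and monoamine transporters and Rab effectors. From E17.5 to P60, 13 of 40 measured were higher and 1 lower in single β cells (median log2 change 0.20), where 3.08% of all genes were higher and 3.89% lower. In α cells 11 were higher and 6 lower (0.39), against 4.3% and 5.66% of all genes, and in bulk 15 of 39 were higher and 4 lower (0.39), against 13.8% and 15.2%. Scg5 and Pcsk1n, which bind the prohormone convertases, were called higher in all 3. Scg5 (7B2), which assists Pcsk2, went from 508.2 ± 45.09 to 1563 ± 245 CPM in β batches (adjusted p = 2.96e-09), from 600 to 1847 in α batches (adjusted p = 1.45e-09) and from 399.5 to 1322 in bulk (adjusted p = 0.000129). Pcsk1n (proSAAS), an inhibitor of Pcsk1, went from 304.8 ± 25.45 to 1085 ± 76.29 CPM in β batches (adjusted p = 3.91e-08), and from 1539 to 3450 in α batches (adjusted p = 7.7e-06). In bulk Pcsk1n was 60.14 and 111.9 CPM at E17.5 and 177.6 and 731 at P60 (adjusted p = 0.0155), with a wide gap between the P60 libraries.

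The V-ATPase accessory protein Atp6ap2 rose from 226.7 to 726.4 CPM and the amidating enzyme Pam from 281.3 to 711.7 in single β cells, while the Rab effector Rph3al fell from 179.2 to 87.97 CPM. In α cells Pcsk2, the convertase that makes glucagon, rose from 2079 to 5402 CPM, the zinc transporter Slc30a8 from 314.1 to 1004 and the vesicle SNARE Vamp2 from 103.9 to 207.3. Rab3d, Ica1, Slc18a1 (a vesicular monoamine transporter) and Rph3al fell there, Rab3d from 120.7 to 51.14 CPM. In bulk Bace2, Ica1l, Scg5 and Atp6ap2 led the rises, and Rph3al, Sntb2, Sytl4 and Pcsk1 the falls. Between α and β cells at P60, 12.9% of all genes were called, and of the 40, 3 were higher in α cells (Pcsk1n, Pcsk2 and Pam) and 14 lower, led by the granule effector Sytl4 (0.02307 against 382.1 CPM), the convertase Pcsk1 (2.142 against 486.7), Rab3d and Syp.

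Regulators with known links to granule genes were read from a list of 18. From E17.5 to P60, none rose and 2 fell (all genes: 3.08% higher, 3.89% lower) in single β cells, Pax6 (367.7 to 235.9 CPM) and the activity-induced Egr1 (553.3 to 150.4). In α cells 1 rose, the cyclic AMP responsive factor Crem (15.13 to 43.14 CPM), and 2 fell, Insm1 (26.14 to 12.83) and Pax6, where 4.3% of all genes were higher and 5.66% lower. In bulk 2 rose, Crem and Stat5b, and 1 fell, the corepressor Rcor1 (13.8% and 15.2% of all genes). At P60 Isl1 and Ptbp1 were higher and Insm1 lower in α than in β cells, 3 of 18 called against 12.9% of all genes. Rest, a repressor of neuronal and granule genes outside neuroendocrine cells, was at 8.301 CPM or less at E17.5 and P60 and passed no test. Its bulk mean was 3.945 CPM before birth and 1.233 CPM in adults (adjusted p = 0.0641).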

How the data were processed

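The authors deposited raw read counts per gene for bulk libraries and single cells. The tools named are DESeq 1.20.0, TopHat2 2.1.0 and HTSeq 0.6.0, and the builds mm10 and GRCm38, per the submitters' processing notes; the roles and the strand setting of the counting were not given in the sources used here. Per the labels' protocols, single cells were FACS-sorted or manually picked. No columns were identical (0), and 0 columns belonged to no listed sample.

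From the counts, reads of unselected single-hormone cells were summed by labelled batch. Bulk libraries and batches were fitted separately with edgeR 4.0.16 (R 4.3.3): quasi-likelihood test, TMM scaling, filterByExpr, all groups in 1 fit, collection method as a covariate for batches, and Benjamini-Hochberg adjustment over all genes tested, with a threshold of 0.05. Spike-in (ERCC) rows were left out of library sizes, at a median of 2.781% of reads per cell. TPM was computed from the counts and the table's gene lengths, although the deposited TPM had been planned. Scripts were tested on simulated data.

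The members and gene lists were chosen with earlier results of these data known. Named were every member, the 4 called genes per list and direction with the smallest adjusted p and at least 20 CPM in the higher group, Rest, Scg5 and Pcsk1n, and the 3 genes most correlated with each member (those of Ptprn2 are not reported here). Alternatives were DESeq2 1.42.0, limma 3.58.1 on log2(CPM + 1) with equal cell weights, plain library size, spike-in scaling, no filter, an acinar covariate, no method covariate, single methods, only the groups compared, a replicate block and leaving out each replicate. The limma alternative used the plain CPM of each cell, without TMM. Selected and multihormone cells entered no test.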

Additional observations from a re-analysis of the deposited data

Results flagged for a closer look

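Scg2 in single β cells at P3 stood at 6491 CPM in batch 3, against 3714 to 4406 in the other 4 batches. The gap to the nearest batch was 0.751 of the whole range. This was 1 of 32 groups looked at for a sample far from the rest, and chance marks about 1 group in 20. P3 was compared with no other stage, but its batches share in the spread estimated by the single-cell fit.

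Resp18 changed by different amounts in the 2 cell types between E17.5 and P60. The α change minus the β change was -1.68 ± 0.37 on the log2 scale by edgeR's interaction test (adjusted p = 0.00515). Line and cell type cannot be told apart here.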

How the results depend on the processing

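Of 1944 values of single members under the alternatives, 1724 kept direction and side of the threshold, 98 lost the call, 30 gained one, 84 uncalled values changed sign, and 8 turned with a call on at least 1 side or at the threshold. The 8 were Scg3 in β cells, P60 against E17.5 (-0.114 with plain library size, -0.113 with limma on log2(CPM + 1) and equal cell weights, called equal weights from here) and P9 against E17.5 (-0.554 and -0.556); Chgb in α cells with plain library size (-0.511 at P60, -0.634 at P9, both against E17.5); and Ptprn2 in α cells at P60 (-0.745 and -1.038). Plain library size and equal weights both go without TMM. The cause was not tested.

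Counts of the 8 members called moved as follows. With spike-in scaling they were 3 for β P60 against E17.5, 0 for β P60 against P9, 2, 0 and 0 for α P60 against E17.5, P9 against E17.5 and P60 against P9, and 3, 2 and 1 for α against β at E17.5, P9 and P15. β P9 against E17.5 gave 4 with plain library size, with equal weights and with only the groups compared. β P60 against P9 gave 1 with equal weights and 0 with manually picked batches only, an alternative chosen after seeing the data. α P60 against P9 gave 0 with FACS-sorted batches only. α against β gave 1 at P15 with only the groups compared, and at P18 it gave 3 with plain library size, 3 with equal weights, 2 with only the groups compared and 3 with FACS-sorted batches only. The α change against the β change gave 2 with DESeq2, and bulk P9 against E17.5 gave 1 with the acinar covariate. FACS-sorted batches alone could be fitted for 5 comparisons and manually picked ones for 4.

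Leaving out each replicate gave, for the members called, 4 to 5, 2 to 2 and 2 to 3 in bulk (P60 against E17.5, P9 against E17.5, P60 against P9), 4 to 5, 2 to 2 and 0 to 1 in β cells, and 5 to 5, 5 to 6 and 0 to 1 in α cells. For α against β it gave 4 to 5, 5 to 5, 4 to 5, 1 to 3, 3 to 5 and 5 to 6 from E17.5 to P60, and 1 to 2 for the difference of changes, where the 2 came without β P60 batch 1. With the replicate number as a block the bulk counts of members were 5, 3 and 3, and β P60 against P9 gave 0. Same-numbered samples showed little common deviation at the median (r 0.049 in bulk, 0.008 in batches). Single pairs ran from -0.139 to 0.427 in bulk and from -0.072 to 0.1 in batches. What same-numbered samples share besides the number is not known from this.

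Over all genes, bulk P60 against E17.5 called 4676 genes, or 990 with the acinar covariate, and bulk P9 against E17.5 called 1316, 32 with that covariate and 2131 without a filter. β P60 against E17.5 called 1292, against 1947 with DESeq2, 4679 with equal weights, 584 with manually picked batches, 4300 with plain library size and 484 with spike-ins. β P9 against E17.5 called 232, against 76 to 2191, and β P60 against P9 called 116, against 24 to 414. α P60 against E17.5 called 1848, against 571 with FACS-sorted batches, 7715 with equal weights, 1137 with only the groups compared and 4873 with plain library size. α P9 against E17.5 called 646, against 287 to 5473, and α P60 against P9 called 157, against 17 to 714. α against β called 1540 at E17.5 (708 to 3883), 920 at P0 (371 to 2141), 1207 at P9 (433 to 1915), 1002 at P15 (420 to 1770), 1677 at P18 (908 to 2552) and 2399 at P60 (892 with FACS-sorted and 1256 with manually picked batches). The difference of changes called 680, against 325 to 1930.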

Other observations

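Cells in no test are given as values per cell. The 4 Ngn3-GFP cells at P0, from mice in which green fluorescent protein marks endocrine progenitors, held Chga at 1568 to 18330 CPM, Chgb at 1609 to 10220 and Scg3 at 824.8 to 1677. Scg2 stood at 2.908 to 253.6 CPM in these cells (median 44.95), against 90.19 to 12490 (median 3200) in the 71 β cells of that day. Resp18 was 0 to 21.32 CPM and Ptprn 0 to 17.45, Ptprn2 was 368 to 490.3 against 59.91 to 468.8 in β cells, and Vgf was listed at 0 in all 4. The ranges overlapped those of β cells for all 8 genes, but with 4 cells against 71 this does not show likeness. For Vgf, Resp18 and Ptprn both ranges began at 0, so they could not fail to overlap.

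The range of the cells enriched for proliferation overlapped that of the unselected β cells of their stage for all 8 genes. Whole ranges of few cells against many overlap easily, so this does not show likeness. The median of Chga was 3455 CPM in 9 enriched cells at P0, against 5810 in 71 unselected cells, and 9083 in 12 enriched cells at P9, against 9248 in 65. For Ptprn the medians were 45.48 against 38.47 CPM at P0, and 55.15 against 103.9 at P9.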
